A study of Mus musculus with 30 samples.

Results

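The change in gene expression after 5 days without doxycycline (Dox) was measured in the rescue clone for Chek1, on 6 of the 30 arrays of the series. These were chosen by their labels, as the 3 arrays labelled Chek1_R_+Dox against the 3 arrays labelled Chek1_R_-Dox. The clone derives from Ainv15, a mouse embryonic stem cell (ESC) line that carries the reverse tetracycline transactivator. It expresses an shRNA against Chek1 together with a Dox-inducible Chek1 cDNA that lacks the 3′ UTR and so escapes the shRNA, and it was selected through a GFP linked to the cDNA. The +Dox cells were kept in 1 ug/ml Dox, and the -Dox cells had Dox removed for 5 days. Clones were maintained on mouse embryonic fibroblasts with LIF, and the cells for the arrays were grown without feeder cells. The other 24 arrays come from the control clone Ctrl_R (6 arrays) and from Bub1b_R, Ppm1g_R and Ppp2r1b_R (18 arrays), with 3 arrays for each clone with Dox and 3 without it. The Ctrl_R samples carry identifiers from an earlier range than the other clones. The labels do not say whether all clones were run together. The study made 3 independent clones per gene, and the labels do not say whether the 3 arrays of a condition are separate clones or cultures. P-values therefore measure only the spread between these arrays, which may be technical. Precision is limited by the 3 arrays per condition.

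CHK1, the product of Chek1, is the kinase through which ATR slows the cell cycle when replication forks stall. Mouse ESCs in LIF hold a naive pluripotent state under Nanog, Esrrb, Klf4 and related factors. When they leave it, WNT, NODAL, BMP and FGF signals can drive a primitive streak program, led by T (Brachyury), in which mesoderm and endoderm precursors arise in the embryo. The interferon response is a set of antiviral genes switched on by STAT and IRF transcription factors, and it is known to be weak in ESCs.

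Levels are given as quantile-normalized log2 intensities, and changes as the difference of the condition means on that log2 scale, positive where the -Dox arrays were higher. A probe was called changed at an adjusted p under 0.05 in limma and at least 1.5-fold. On the Chek1_R arrays 12643 to 12898 probes were detected (detection p under 0.05). Arrays of the same condition correlated with r from 0.995 to 0.996 across probes, and arrays of opposite conditions with r from 0.979 to 0.981. Of the 8 ESC markers 7 were summed, and these were detected on all 6 arrays. The summed linear level of these 7 was 27739 to 28373 with Dox and 24965 to 26641 without it. The remaining marker, Dppa5a, stands on the array as Dppa5 and was left out of the sum. It was detected on all 6 arrays, at a mean of 15.29 with Dox and 15.33 without it. The lower sum therefore holds for the 7 alone.

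The tested Chek1 probes read higher on the arrays labelled -Dox, close to the limit of detection. Chek1 (chr9:36708482-36726658, GRCm38.p6) has 2 tested probes. On the brighter of them the deposited signal was 24.3, 20.9 and 26.7 on the 3 arrays labelled +Dox, none of which was detected, and 50, 97 and 45.4 on the 3 arrays labelled -Dox, all of which were. The normalized level rose by 0.71 (SE 0.158, limma adjusted p = 0.00115), which is at least 1.35-fold, and the arrays of the conditions did not overlap. This call is lost with an offset of 50 or 200 in place of 16 added to the intensities and with an unmoderated test (adjusted p = 0.0568). The second probe was detected on 0 of 3 and 1 of 3 arrays and differed by 0.51 (limma adjusted p = 0.0132), under the fold limit. Its lower bound was 0.89-fold, so a rise of this probe is not established. Without the further background correction it was called, at 3.004 (limma adjusted p = 5.24e-07). That value is no measured size, since it rests on undetected signals of 1.1, 6.6 and 4.1 on the arrays labelled +Dox. The level on the brighter probe was 5.20 to 5.40 with Dox and 5.72 to 6.24 without it, against 6.46 to 7.46 on the 24 arrays of the other clones. This probe thus read lower on the Chek1_R arrays than on every array of the other clones, a difference that was not tested, and higher with the -Dox label than with the +Dox label. Whether the probes match the rescue cDNA cannot be told from the files, so they do not show how much CHK1 the cells had. For this reason the conditions are called the arrays labelled +Dox and labelled -Dox below, and every direction rests on those labels. The hairpin of the rescue vector, shown because it defines the depletion, holds this target sequence:
Chek1_1_R shRNA: cccatgtagtagtatcacttt

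**Figure D1:**
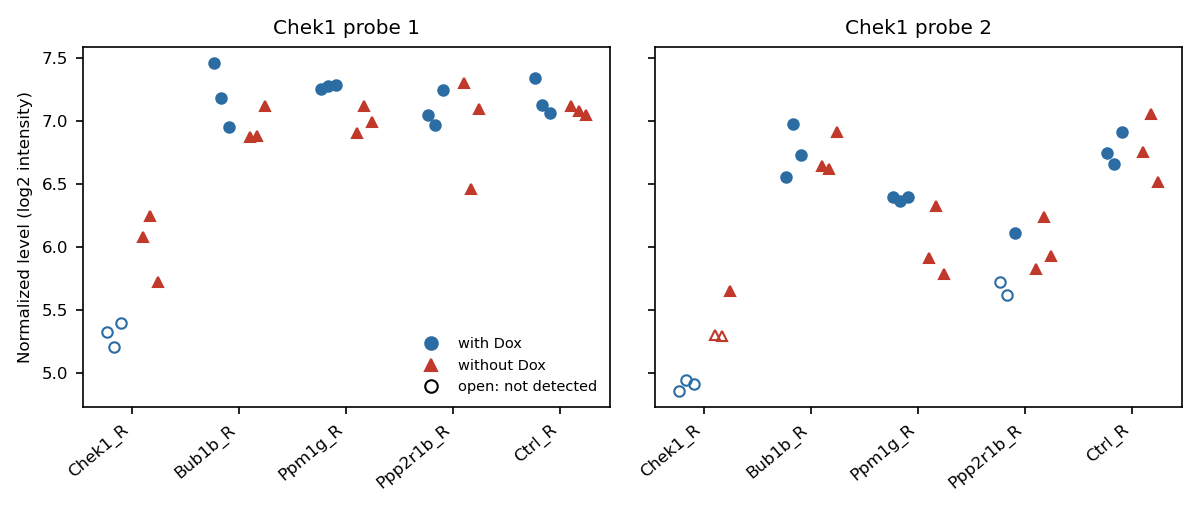
Normalized log2 intensity of the 2 tested Chek1 probes (the brighter on the left panel) on all 30 arrays, by clone and Dox label. Each point is 1 array, and open points were not detected. On the left panel the Chek1_R arrays lie at 5.20 to 6.24, below the arrays of every other clone, with the arrays labelled -Dox above those labelled +Dox.

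Of 15151 tested probes 1404 (9.27%) changed in Chek1_R between the labelled conditions, 681 higher (4.49%) and 723 lower (4.77%) on the arrays labelled -Dox. In the control clone Ctrl_R 167 probes (1.1%) changed, 107 of them higher. The change in Chek1_R differed from that in Ctrl_R for 1362 probes (8.99%), and from the mean change in Bub1b_R, Ppm1g_R and Ppp2r1b_R for 579 probes (3.82%). Of the 1404 probes, 950 also passed the first of these tests and 474 the second, all with the sign of their own change. The large changes were rises. By fitted change, at least 2-fold differences were seen for 271 higher and 123 lower probes, at least 4-fold for 60 and 2, and at least 8-fold for 27 and 0. These counts include probes not detected in a condition, whose fitted size is not measured. Among the 4-fold ones, Mixl1 is counted at 6.71-fold with a bound of 3.67, and Rab3il1 at 4.30-fold with a bound of 3.15. Among the changed probes 144 of the higher ones were not detected on any array labelled +Dox and 75 of the lower ones on none labelled -Dox. By the brightest probe of each of 11177 tested genes, 523 (4.68%) were higher and 586 (5.24%) lower, and the median change of all genes was -0.02. The counts of gene lists below are read against these shares.

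**Figure D2:**
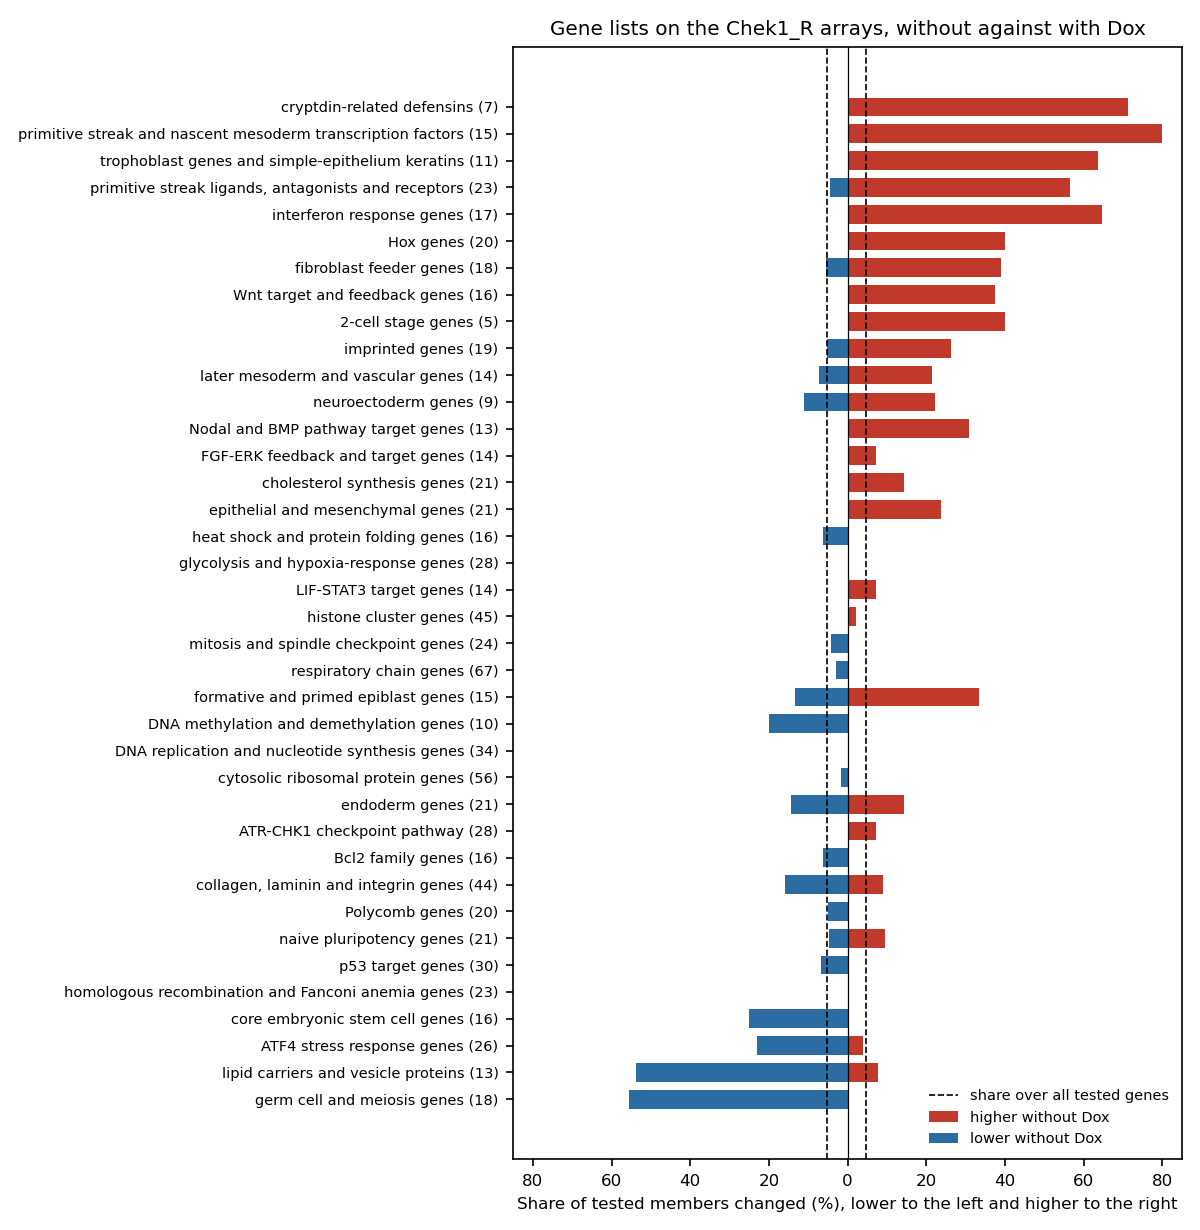
Share of the tested members of each gene list (number tested in parentheses) that changed in Chek1_R, with higher genes to the right and lower genes to the left, ordered by the median change of the list. Dashed lines are the shares over all tested genes, 4.68% higher and 5.24% lower; primitive streak, interferon, keratin and defensin lists extend furthest to the right, and germ cell and vesicle lists furthest to the left.

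Primitive streak transcription factors had the highest share of risen members among the lists. Of 15 tested transcription factors of the streak and nascent mesoderm 12 were higher on the arrays labelled -Dox and 0 lower, with a median change of 1.82 (1.75 with undetected genes at their bound), against 0.11 for the same genes in Ctrl_R. T, the T-box factor that defines the streak (chr17:8434423-8442496), read 6.60, 6.47 and 6.17 on the arrays labelled +Dox and 10.94, 10.79 and 10.84 on those labelled -Dox. It rose 21.7-fold (log2 4.44, SE 0.109, adjusted p = 7.21e-20), and every -Dox array was far above every +Dox array. Evx1, a homeobox factor of the posterior streak (chr6:52313498-52318389), read 5.36, 5.62 and 5.20 against 9.48, 9.50 and 9.50, a rise of 4.10 (SE 0.141, adjusted p = 6e-17). Cdx2, a homeobox factor of posterior mesoderm and of trophoblast (chr5:147300900-147307249), read 5.56, 6.18 and 6.07 against 9.94, 9.86 and 9.92, a rise of 3.97 (SE 0.145, adjusted p = 1.91e-16). Both genes went from the edge of detection, on 1 and 2 of the 3 arrays, to levels near the middle of the scale. Sp5, a zinc finger factor that WNT switches on (chr2:70474923-70477726), was already well detected and read 9.29, 9.24 and 9.56 against 12.30, 12.42 and 12.38, an 8.01-fold rise (adjusted p = 1.24e-17).

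Several factors were seen only on the arrays labelled -Dox, so that their rise is a bound. Mixl1, a homeobox gene of mesendoderm, rose at least 3.67-fold (adjusted p = 4.92e-16), Mesp1, a bHLH factor of nascent mesoderm, at least 3.47-fold (adjusted p = 4.23e-15), and Lhx1 at least 3.37-fold (adjusted p = 1.49e-12). Eomes, a T-box factor of streak and trophoblast, read 4.95, 4.76 and 5.01 against 6.52, 6.85 and 6.55, at least 2.08-fold higher (adjusted p = 9.45e-12). Gsc, Snai1 and Cdx1 rose by 0.82 to 1.82, and Sp8 at least 1.7-fold. Foxh1, Nkx1-2 and Tbx6 were not called changed, at 0.08, 0.08 and -0.32, and Nkx1-2 was not detected on any of the 6 arrays. Mesp2, Cdx4, Hand1, Foxa2 and Hes7 did not pass the detection filter.

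**Figure D3:**
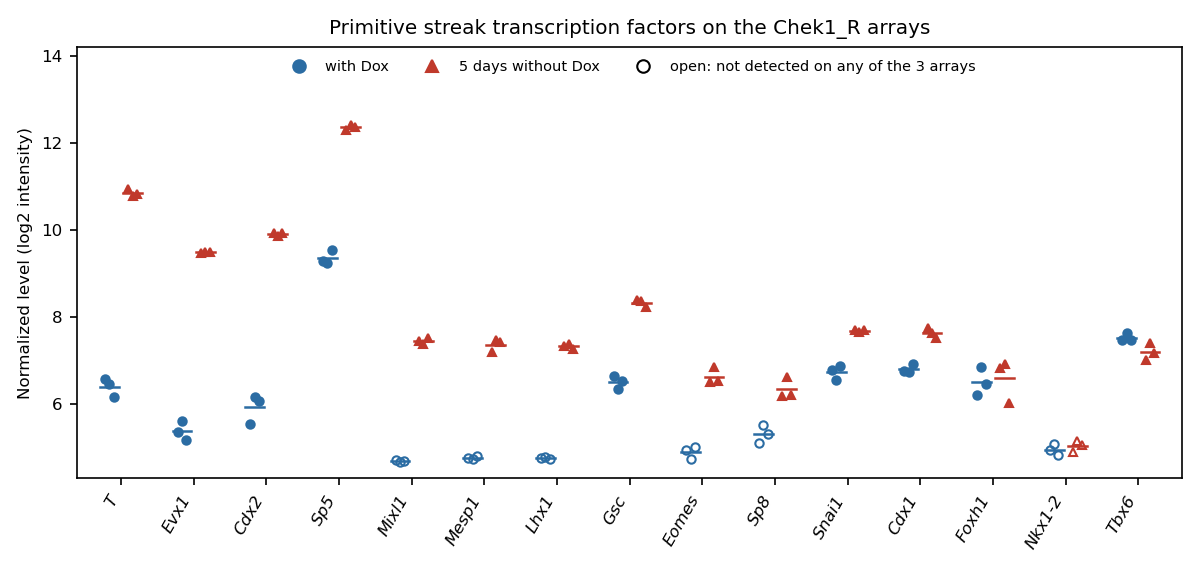
Normalized log2 intensity of the 15 tested primitive streak transcription factors on the 6 Chek1_R arrays, circles labelled +Dox and triangles labelled -Dox, with the mean as a line; open symbols mark conditions with no detected array. For the 12 genes on the left the arrays of the conditions do not overlap, and T moves from near 6.41 to 10.85.

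The change in Chek1_R exceeded that in Ctrl_R for all 12 of these factors, and exceeded the mean of the other 3 clones for 10 of them, all but Eomes and Snai1. For T the difference from the other 3 clones was 2.69 (adjusted p = 1.31e-13), since T changed by 2.31 in Bub1b_R, 1.05 in Ppm1g_R and 1.90 in Ppp2r1b_R. T also rose in Ctrl_R, by 0.75 (adjusted p = 0.000123).

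Sequence around the starts of these genes was read from the RefSeq promoter table (GRCm38.p6, 250 bases before to 50 after a transcript start), which holds 10 of the 12 risen factors. TCF and LEF proteins, the DNA-binding partners of beta-catenin in WNT signaling, bind sequences such as CTTTGAT and CTTTGAA. These letters, on either strand, occurred in 4 of the 10, and in 8.65% of all 32851 promoter windows of the table. The 4 are genes with a match in any of their windows, so these shares differ in unit. The table covers 8504 of 11177 tested genes, too few for a comparison of gene groups, so the matches are shown as a description only. A further Mesp1 match, in a window at chr7:79793651-79793669, is not shown. The capitals mark the match, in windows at chr17:8434182-8434200 (plus strand), chr2:70474813-70474831 (plus), chr12:118847176-118847194 (plus) and chr7:79793609-79793627 (minus), in this order:
T: cggtacTTCAAAGggtgtc
Sp5: ggccccCTTTGATcaggaa
Sp8: cggcacTTCAAAGccggag
Mesp1: agccggCTTTGATatgctg

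Of 23 tested ligands, antagonists and receptors of the streak 13 were higher and 1 lower, with a median of 1.14, or 1.03 with bounds (0.09 in Ctrl_R). Fgf8, an FGF ligand of the streak, read 7.71, 7.80 and 7.76 on the arrays labelled +Dox and 11.45, 11.26 and 11.38 on those labelled -Dox, a 12.2-fold rise (log2 3.61, SE 0.0688, adjusted p = 7.01e-22), beside a rise of 0.76 in Ctrl_R (adjusted p = 1.53e-07). Rspo3, a secreted enhancer of WNT signaling, read 5.01, 5.42 and 5.22 against 9.08, 8.97 and 9.13. It was not detected with the +Dox label and rose at least 11.2-fold (adjusted p = 2.08e-13). The activin antagonist Fst rose at least 7.98-fold, the apelin receptor Aplnr (listed as Agtrl1) at least 5.23-fold and the PDGF receptor Pdgfra at least 4.36-fold. Among WNT ligands Wnt3 rose by 2.04, Wnt8a by 1.46 and Wnt5b at least 2.72-fold, whereas Wnt3a differed by 0.46 and was not called. Wnt5a, not a member of that list, was among the 15 largest rises, at 5.67, 5.11 and 5.33 against 8.81, 8.85 and 8.81 (log2 3.45, adjusted p = 3.76e-17). Bmp4, Fgf17, Lefty2 and Epha1 rose by 1.03 to 1.48, and Cyp26a1, an enzyme that degrades retinoic acid, at least 1.33-fold. Nodal itself stayed near its level, with a difference of 0.08 (adjusted p = 0.59). Bmp7 fell by 0.75, and Lefty1, an inhibitor of NODAL, differed by -0.56 (adjusted p = 1.4e-07), just under the fold limit.

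Targets of the pathways moved unevenly. Of 16 tested WNT target and feedback genes 6 were higher and 0 lower, and these were T, Sp5, Axin2, Notum, Lef1 and Cdx1. Axin2, a negative regulator that WNT induces in most cells, read 7.66, 7.60 and 7.67 against 9.47, 9.41 and 9.41, a 3.46-fold rise (log2 1.79, SE 0.0717, adjusted p = 1.16e-15), and differed from Ctrl_R by 1.92. Of 13 tested NODAL and BMP target genes 4 were higher, among them Msx1 (2.81), Lefty2 (1.48) and Id3 (0.74), and 0 lower, while Id1 and Smad6 differed by 0.09 and 0.04. Of 14 tested FGF-ERK feedback genes only Dusp4, a phosphatase that dampens ERK, was called, with a rise of 1.91 (adjusted p = 3.5e-18). Dusp6 differed by 0.44, and Etv5 and Spry4 by -0.02 and -0.30. Relative to Ctrl_R 3 of the 14 were called higher, Dusp4 and Dusp6 (0.72) among them, and 1 lower, Egr1 (-1.01).

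Hox genes, which pattern the body axis, rose in part. Of 20 tested 8 were higher and 0 lower, with a median of 0.51, or 0.21 with bounds. Hoxc9 read 5.10, 5.77 and 5.44 against 8.53, 8.54 and 8.55, a rise of 3.10 (SE 0.151, adjusted p = 4.65e-14), and Hoxc6 was at least 7.75-fold higher (adjusted p = 2.46e-12). Hoxd9, Hoxd8, Hoxa7, Hoxd10, Hoxd4 and Hoxa5 were the other risen members. Of the 8, 7 also exceeded the mean change of the other 3 clones, with a difference of 2.22 for Hoxc9 (adjusted p = 2e-09).

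The naive state genes moved little beside this. Of 21 tested 2 were higher, Bmp4 and the threonine dehydrogenase gene Tdh (0.71), and 1 lower, the adhesion gene Pecam1 (-1.08, adjusted p = 8.7e-07), with a median of -0.10 (-0.12 in Ctrl_R). Nanog read 12.90, 12.91 and 13.06 on the arrays labelled +Dox and 12.98, 13.13 and 12.89 on those labelled -Dox, so the conditions overlapped (difference 0.04, SE 0.101, adjusted p = 0.812). Zfp42 (Rex1) differed by 0.01, Esrrb by -0.31 and Klf4 by 0.52. Of the 8 pluripotency genes in the study's PCR panel 0 were called in either direction by limma at the 1.5-fold limit, while 6 had an unadjusted p under 0.05. Without the fold limit 4 of these had an adjusted p under 0.05: Pou5f1, Esrrb and Tcl1 below 0 and Klf4 above it. Esrrb and Tcl1 changed by -0.31 and -0.36 in Chek1_R and by -0.31 and -0.39 in Ctrl_R. Tbx3, a T-box factor of the naive state, differed by 0.21 in Chek1_R and by -0.57 in Ctrl_R, and was called higher relative to Ctrl_R (0.78, adjusted p = 0.000105). Klf4 also differed from the other 3 clones, by 0.84 (adjusted p = 9.52e-05), in which it changed by -0.48, -0.10 and -0.36. Of the 20 lineage genes of the panel 14 were tested, of which 7 were higher (Cdx2, Eomes, Isl1, T, Mixl1, Cxcl12 and Fgf5) and 0 lower. Cxcl12 changed by 0.63 in Chek1_R and by 0.40 in Ctrl_R, and was not called relative to Ctrl_R.

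Of 16 core ESC genes 4 were lower and 0 higher. These were Fgf4, the FGF that ESCs secrete (-0.91), the chromatin factor Utf1 (-0.80), the methyltransferase cofactor Dnmt3l (-0.68) and the TGF-beta ligand Gdf3 (-0.59), and Sox2 differed by -0.20 (adjusted p = 0.0929). Of 15 formative and primed epiblast genes 5 were higher and 2 lower. Fgf5, the classic marker of primed epiblast, read 5.48, 5.93 and 5.94 against 8.29, 8.04 and 8.27, a 5.35-fold rise (log2 2.42, SE 0.133, adjusted p = 5.75e-13) with no overlap. Otx2, a homeobox factor of the anterior epiblast, and Fgf15 each fell by 0.87, and Pou3f1 and Dnmt3b differed by 0.09 and -0.03. Fgf15 also fell relative to the other 3 clones, where its changes were -0.01 to 0.01.

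Of the lineage lists, simple-epithelium keratins and trophoblast genes were next, with 7 of 11 higher, 0 lower and a median of 1.15, or 0.69 with bounds (0.22 in Ctrl_R). Krt8, an intermediate filament gene of simple epithelia, read 11.69, 11.65 and 11.67 against 12.83, 12.79 and 12.89, a 2.25-fold rise (log2 1.17, SE 0.0506, adjusted p = 4.44e-15). Krt19 rose by 1.42, Gata3 by 1.17 and Krt18 by 0.69, and Plac1 was at least 1.27-fold higher. Only Cdx2 of these 7 differed from the other 3 clones. Endoderm genes went both ways, with 3 of 21 higher (Pdgfra, Krt19 and Cxcr4) and 3 lower (Amn, Apoe and Lama1), while Sox17, Gata6 and Gata4 differed by 0.17, 0.35 and -0.09. Of 14 later mesoderm genes 3 were higher, the heart and limb factor Isl1, Bmper and Cxcl12, and 1 lower, the vascular receptor Tek. Of these Cxcl12 was not called relative to Ctrl_R. Of 9 neuroectoderm genes 2 were higher, Otx1 (0.80) and Gbx2 (0.73), and 1 lower, Neurod1 (-1.17).

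Mesenchymal genes rose in part. Vim, the intermediate filament gene of mesenchyme, read 9.37, 9.26 and 9.01 against 10.92, 10.66 and 10.79, a rise of 1.58 (SE 0.111, adjusted p = 6e-11). Vim, Tgfb1, Tgfb2, Snai1 and Zeb2 were the 5 of 21 epithelial and mesenchymal genes that were higher, and 0 were lower. Of 44 collagen, laminin and integrin genes 4 were higher, Col5a1 (1.10), Col1a1 (1.06), Col23a1 and Col6a1 (0.85), and 7 lower, among them Col9a2 (-1.37), Col17a1 (-1.06) and Itgb4 (-0.85). Markers of the fibroblasts used as feeders also rose in part, and Col5a1, Col1a1 and Col6a1 belong to both lists. Of 18 tested feeder markers 7 were higher and 1 lower (Thy1), with a median of 0.45 (0.07 in Ctrl_R), and their summed linear level was 18298 to 19218 on the arrays labelled +Dox and 21746 to 23185 on those labelled -Dox. Col3a1, Lox and Prrx1 were detected on none of the 6 arrays, and Col1a2, Postn and Lum did not pass the filter. Dcn was at least 1.91-fold higher. The part of feeder cells in the mesenchymal and collagen results was not tested. In bulk RNA more cells of a type and more RNA per cell cannot be told apart.

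Interferon response genes rose on the arrays labelled -Dox beyond their change in the other clones. Of 17 tested 11 were higher and 0 lower, with a median of 0.70 (0.16 in Ctrl_R). Usp18, an ISG15 protease that also dampens the interferon receptor (chr6:121245906-121270917), read 5.13, 4.89 and 5.21 on the arrays labelled +Dox, on none of which it was detected, and 10.23, 10.37 and 10.32 on those labelled -Dox. It rose at least 26.5-fold (adjusted p = 7.21e-20), and its second probe at least 5.27-fold. Oasl2, an OAS-like antiviral gene (chr5:114896926-114912245), read 7.80, 7.75 and 7.53 against 10.82, 10.93 and 10.75, an 8.84-fold rise (log2 3.14, SE 0.147, adjusted p = 1.96e-14). No array labelled +Dox came near the lowest array labelled -Dox for either gene.

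Among the transcription factors of the response Irf9, a DNA-binding subunit, rose by 0.69 (adjusted p = 1.13e-05), and Stat2 differed by 0.19 (adjusted p = 0.2). Irf1, a transcription factor that interferon induces, rose by 1.14, and all 5 of its probes were called. Of the effectors Ifit3 rose by 2.31, Mx2 at least 2.23-fold, the immunoproteasome subunit Psmb8 at least 2.43-fold, the RNA sensor Ddx58 (RIG-I) by 0.83, Ifitm3 by 0.70 and Rsad2 at least 1.1-fold. B2m (0.48), Ifit2 (0.51), Bst2, Ifitm2 and Ifitm1 were not called on their brightest probe, while 2 dimmer Ifitm1 probes fell, 1 at least 2.05-fold and the other by 0.98. Ifit1, Irf7, Oasl1, Oas1a, Mx1, Ifi44 and Ifih1 did not pass the detection filter.

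**Figure D4:**
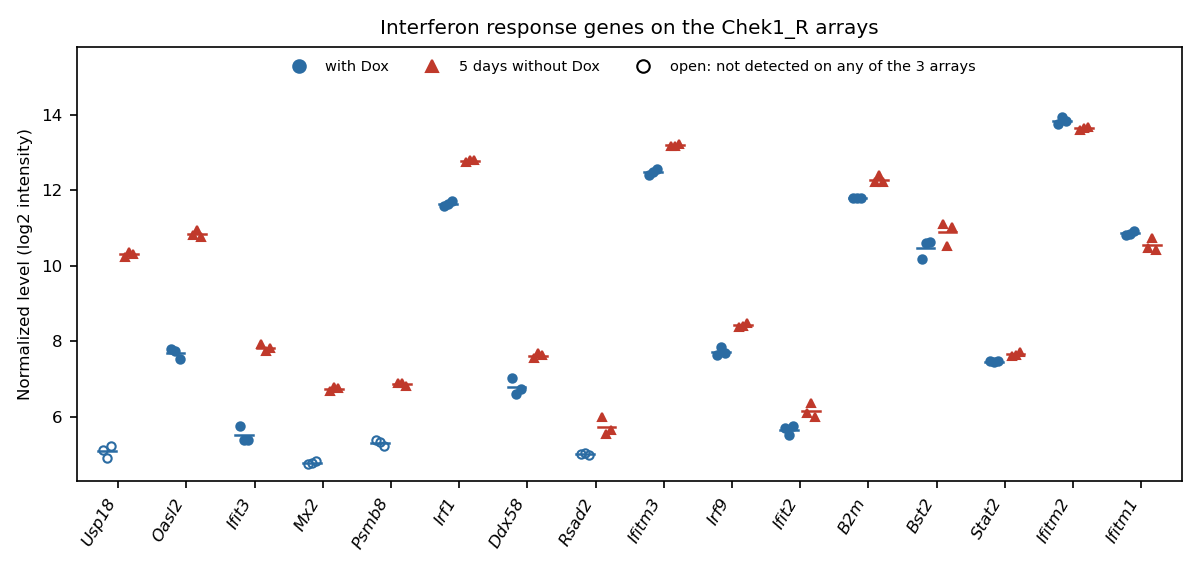
Normalized log2 intensity of tested interferon response genes on the 6 Chek1_R arrays, circles labelled +Dox and triangles labelled -Dox, with the mean as a line; open symbols mark conditions with no detected array. The called genes, from Usp18 to Irf9, stand on the left and show no overlap, and Usp18 has the widest gap, from 5.08 to 10.31.

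The change in Chek1_R exceeded the mean change of the other 3 clones for 10 of the 11 risen genes, all but Ddx58, and that in Ctrl_R for 8. Usp18 passed both tests (adjusted p = 7.04e-16 and 3.2e-16), without a measured size since it was detected on no Chek1_R array labelled +Dox. Its fitted change was 1.55 in Bub1b_R, 0.14 in Ppm1g_R, 1.96 in Ppp2r1b_R and 0.01 in Ctrl_R, so it also rose in Bub1b_R and Ppp2r1b_R. For Oasl2 the difference was 2.54 from the other 3 clones (adjusted p = 1.22e-10) and 2.56 from Ctrl_R (adjusted p = 2.51e-09), since Oasl2 changed by 0.79 in Bub1b_R, 0.05 in Ppm1g_R, 0.97 in Ppp2r1b_R and 0.59 in Ctrl_R. A pair of further genes known to respond to interferon lay among the 15 largest rises without being members of the list. Ifi27 (listed as D12Ertd647e) read 6.38, 6.06 and 6.06 against 10.06, 9.93 and 9.88, a 13.8-fold rise (adjusted p = 7.21e-20), and Samd9l was at least 8.84-fold higher (adjusted p = 7.45e-19). In Bub1b_R, Ppm1g_R and Ppp2r1b_R the fitted changes were 1.16, -0.34 and 1.69 for Ifi27, and 1.88, 1.46 and 1.56 for Samd9l.

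**Figure D5:**
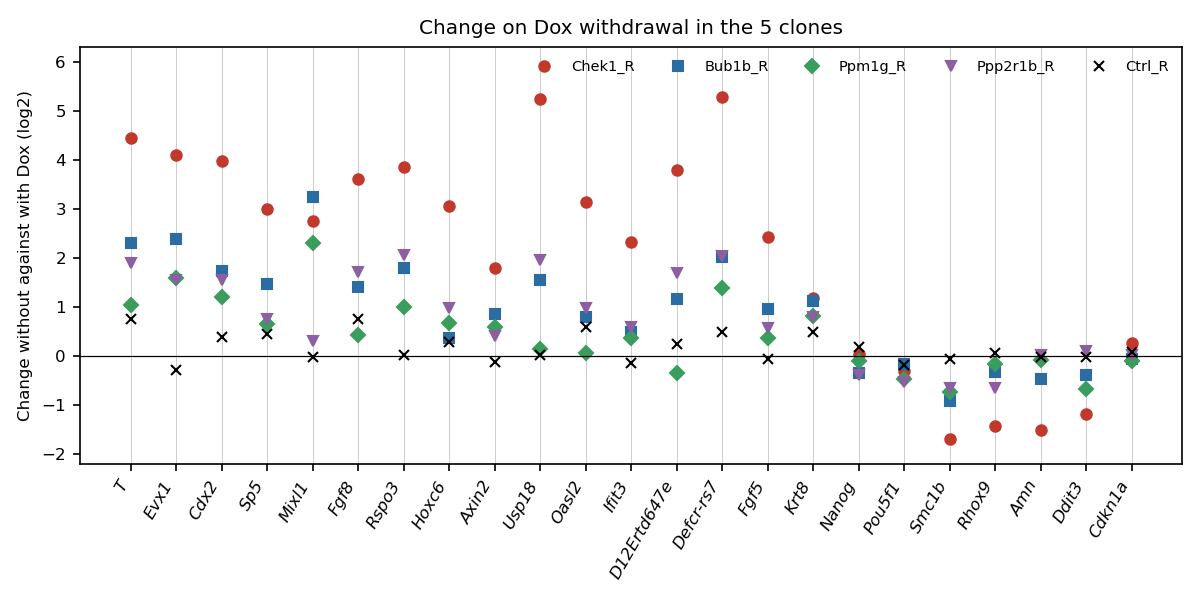
Change without against with Dox (log2) for selected genes in each of the 5 clones; circles are Chek1_R and crosses Ctrl_R. Usp18, Oasl2 and Ifit3 stand above the other clones in Chek1_R, T, Evx1 and Cdx2 rise in Chek1_R and less in the other 3 rescue clones, and Nanog lies between -0.40 and 0.17 in all 5.

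The interferon-stimulated response element, a site bound by STAT and IRF factors, has a core of GAAA and, after 2 bases of any kind, GAAA again. Of the 11 risen genes 8 are in the RefSeq promoter table, Usp18 and Mx2 not among them. These letters, on either strand, occurred in 4 of the 8 (Ddx58, Ifit3, Ifitm3 and Rsad2) and in 3.44% of all promoter windows. The 4 are genes with a match in any of their windows, so these shares differ in unit and were not compared. Ifit3 and Ifitm3 each held the letters at 2 places. A further Ifitm3 match, in a window at chr7:141010727-141010748, is not shown. The windows below lie at chr19:34583367-34583388 and chr19:34583401-34583422 for Ifit3 (plus strand), chr12:26456557-26456578 for Rsad2 and chr7:141010710-141010731 for Ifitm3 (both minus), in this order, with the match in capitals. A match is a description of the sequence and does not show that a factor was bound.
Ifit3, first window: ggtaagTTTCACTTTCctcttc
Ifit3, second window: agtctgTTTCAGTTTCtacttt
Rsad2: tccaacTTTCATTTTCagaaaa
Ifitm3: ttctgaGAAACCGAAActgccg

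The largest rise detected in both conditions fell on a gene of another kind. Of 7 tested cryptdin-related defensin genes, which encode antimicrobial peptides of the gut and lie in a cluster of near-identical copies, 5 were higher and 0 lower, with a median of 3.33, or 2.53 with bounds. LOC100044289, named on the array only by its locus, read 6.63, 6.93 and 6.67 against 12.31, 12.29 and 12.27, a 46.7-fold rise (log2 5.54, SE 0.0951, adjusted p = 1.2e-22). Defa31 (listed as Defcr-rs7) read 5.50, 5.13 and 5.11 against 10.69, 10.34 and 10.53, at least 30.7-fold higher (adjusted p = 1.13e-19). The other risen members were AY761185, Defcr-rs10 and Defcr26. Since these copies share sequence, which of them was transcribed is uncertain. The same 5 genes changed by 0.34 to 2.12 in Bub1b_R, Ppm1g_R and Ppp2r1b_R, and all 5 differed from their mean. In Ctrl_R LOC100044289 rose by 1.46 (adjusted p = 5.63e-10) and Defcr-rs7 differed by 0.48 (adjusted p = 0.0257).

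Falls were smaller, and germ cell genes had the highest share of fallen members among the lists. Of 18 tested germ cell and meiosis genes 10 were lower and 0 higher, with a median of -0.66 (-0.03 in Ctrl_R). Smc1b, the meiotic cohesin subunit (chr15:85064689-85131957), read 8.55, 8.75 and 8.62 on the arrays labelled +Dox and 6.88, 6.98 and 7.01 on those labelled -Dox, a 3.22-fold fall (log2 -1.69, SE 0.0736, adjusted p = 5.14e-15). Rhox9, a reproductive homeobox gene, read 8.79, 8.65 and 8.64 against 7.20, 7.21 and 7.36 (log2 -1.44, SE 0.104, adjusted p = 8.75e-11). Dmrtc2, Aurkc, Mov10l1, the piRNA-pathway gene Piwil2, the cohesin gene Rec8, Tex11 and Tex14 fell by 0.65 to 1.39, and Rhox6, not detected on the arrays labelled -Dox, was at least 1.62-fold lower. Of these 10, 9 also fell relative to Ctrl_R, all but Piwil2, and only Smc1b and Rhox9 differed from the other 3 clones.

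Among the 15 largest falls Rab3il1, an exchange factor of vesicle transport, was at least 3.15-fold lower (adjusted p = 2.46e-12), and Cplx1, a complexin of vesicle fusion, fell by 1.57. They belong to a list of lipid carriers and vesicle proteins of which 7 of 13 were lower and 1, Fabp5, higher, with Apoe, Apoc1 and Fabp3 each lower by 0.65 or 0.66. With arrays scaled to their median 4 of the 13 were lower. Relative to Ctrl_R 5 were lower and 1 higher, and relative to the mean of Bub1b_R, Ppm1g_R and Ppp2r1b_R only Rab3il1 was lower. Rab3il1 changed by -1.19, -1.60 and -1.23 in those clones and by -0.74 in Ctrl_R. The receptor gene Tnfrsf13c read 7.46, 7.61 and 7.72 against 5.73, 5.66 and 6.04 (log2 -1.79, adjusted p = 1.53e-10). Amn, which encodes amnionless of visceral endoderm, read 8.70, 8.62 and 8.57 against 7.10, 7.12 and 7.13 (log2 -1.52, SE 0.0889, adjusted p = 1.84e-12). It changed by -0.46, -0.08 and 0.02 in Bub1b_R, Ppm1g_R and Ppp2r1b_R, a difference from their mean of -1.34 (adjusted p = 1.22e-09).

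The lists nearest to CHK1 itself held few called genes, at shares near those over all tested genes or below them. Of 28 tested genes of the ATR-CHK1 checkpoint 2 were higher (7.14%, against 4.68% over all genes) and 0 lower. The 2 were Chek1 and the cyclin gene Ccne2 (0.86, with 0.65 in Ctrl_R). Trp53, Cdc25a, Clspn and Chek2 differed by -0.08, -0.24, 0.11 and -0.16. Of 30 tested p53 targets 0 were higher and 2 lower (6.67%, against 5.24% over all genes), Tnfrsf10b (-0.90) and Pltp (-0.83). The median of the list was -0.18, and Cdkn1a and Mdm2 differed by 0.27 and -0.40. Of 23 homologous recombination and Fanconi anemia genes and of 34 replication and nucleotide synthesis genes 0 were called by limma in either direction, while 11 and 13 had an unadjusted p under 0.05. The share of all tested genes under that p was not counted. The recombination and Fanconi list had a median of -0.195 (0.03 in Ctrl_R), with 3 of its 23 genes above 0. Of 24 mitosis genes only Aurkc was called, and of 16 Bcl2 family genes only Mcl1 (-0.61). The medians of these 2 last lists, of the replication list and of the checkpoint list, -0.02 to -0.06, change sign when arrays are scaled to their median instead. The ATF4 stress response had 6 of 26 genes lower and 1 higher (Vldlr), with a median of -0.27 (-0.19 in Ctrl_R). Relative to Ctrl_R 4 of the 26 were higher (Asns, Atf3, Atf5 and Vldlr) and 1 lower, Ddit3. Ddit3, the stress factor CHOP, read 8.75, 8.99 and 8.77 against 7.79, 7.50 and 7.64 (log2 -1.19, SE 0.131, adjusted p = 1.13e-07), while Trib3 and Chac1 fell by 1.04 and 0.93 in Chek1_R and changed by -0.69 and -0.81 in Ctrl_R.

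Of the imprinted genes 5 of 19 were higher, Dcn, the growth factor gene Igf2 (1.29), Peg3 (1.28), Dlk1 (0.87) and Mest (0.84), and 1 lower, Slc22a18 (-0.76). The housekeeping lists carried few calls: 0 of 28 glycolysis and hypoxia genes by limma (14 at an unadjusted p under 0.05), 1 of 56 ribosomal protein genes, 2 of 67 respiratory chain genes, 1 of 45 histone genes and 1 of 16 heat shock genes. Of 10 DNA methylation genes 2 were lower (Dnmt3l and Apobec1), of 20 Polycomb genes 1 (Phf19), and of 14 LIF-STAT3 targets only Gbx2 was higher. Of 5 tested genes of the 2-cell stage Tcstv3 and Tcstv1 were higher, by 0.85 and 0.76, beside 0.95 and 1.01 in Ctrl_R.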

How the data were processed

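Total RNA was hybridized to Illumina mouse bead arrays, and the authors deposited, for 25697 probes, background-corrected signal intensities without any normalization across arrays. The deposited detection p-value of every probe stands beside them. The submitters' processing notes name lumi. The version and steps are not given in the sources used here. Some detection p cells held spreadsheet dates, on a single array each of Ppm1g_R without Dox (46 cells, 28 converted back) and Bub1b_R without Dox (14 cells, 6 converted back). The remaining 18 and 8 cells took the p of the probe closest in signal.

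The intensities were normalized in R 4.3.3 with limma 3.58.1 (neqc, offset 16, quantiles over 30 arrays, log2). Filtering on detection (p under 0.05 on 3 or more arrays) left 15151 probes, which were fitted with 1 mean for each of 10 conditions (20 residual and 3.38 prior degrees of freedom), with Benjamini-Hochberg adjustment over all of them. Calls needed a 1.5-fold difference and an adjusted p under 0.05. The same fit tested the change in Chek1_R minus that in Ctrl_R, and minus the mean change of Bub1b_R, Ppm1g_R and Ppp2r1b_R. A gene not detected on any array of a condition is given as a lower bound, taken against the higher of its own signal and the lowest detected signal. The brightest probe over all arrays stands for a gene. Simulated arrays held 15151 probes, with 200 changed by 2-fold or 3-fold. Of these 99.5% were recovered with 2 false calls in Chek1_R, 92% with 3 against Ctrl_R and 97.5% with 6 against the other 3 clones. The noise was normal and independent between arrays, with the fitted spread of each probe. Changes near the 1.5-fold limit, noise shared by an array and the detection limit were not simulated, so these rates do not cover them.

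The members and gene lists were chosen with earlier results of these data known. Genes are named by a rule: Chek1 and Trp53, the 15 largest rises and 15 largest falls without overlap and detected on all 3 higher arrays, the study's panel of 20 lineage and 8 pluripotency genes, up to 6 changed members and 3 bright members of each list, and the 5 largest differences each way from Ctrl_R and from the other 3 clones. Further list members and single probes are named after their values were seen. Some list members enter the counts but are not reported here. Alternatives were no further background correction, median scaling, offsets of 50 and 200, no or a stricter detection filter, a fit restricted to the compared arrays, a replicate block (statmod 1.5.0), an unmoderated test per probe, the mean of a gene's probes, a 2-fold or no fold limit, and leaving out each array. Gene positions and promoters are from RefSeq (GRCm38.p6), and 220 of 225 named genes were matched.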

Additional observations from a re-analysis of the deposited data

Results flagged for a closer look

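These results are listed because the change in Chek1_R differed between clones by a test of the difference itself, and none was examined for a cause. The change differed from that in Ctrl_R for 1362 probes and from the mean of Bub1b_R, Ppm1g_R and Ppp2r1b_R for 579. Differences are fitted values on the log2 scale. Usp18, Defcr-rs7, Klhl6, AY761185 and LOC100048346 were detected on no Chek1_R array labelled +Dox, so their values rest on background signal, are no measured sizes and give no order.

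Against Ctrl_R the fitted differences upwards included 5.22 for the interferon gene Usp18, 4.79 for the defensin gene Defcr-rs7, 4.51 for a probe of Klhl6, 4.39 for the streak factor Evx1 and 4.34 for the defensin AY761185. Those downwards included -1.86 for LOC100045403, -1.62 for the meiotic gene Smc1b, -1.62 for Enpp2, which encodes the lysophospholipase autotaxin, -1.58 for a probe of the lipase gene Liph and -1.55 for Calml4. Klhl6 was detected on no array labelled Chek1_R_+Dox, and its probes were at least 12.5-fold and at least 11.9-fold higher on the arrays labelled -Dox.

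Against the mean of Bub1b_R, Ppm1g_R and Ppp2r1b_R the fitted differences upwards included 4.02 for Usp18, 3.76 for the defensin locus LOC100044289, 3.46 for Defcr-rs7, 3.24 for a probe of D12Ertd647e (Ifi27) and 2.96 for LOC100048346. Those downwards included -1.34 for Amn, -1.33 for the synaptotagmin gene Syt4, -1.32 for the Kruppel-like factor Klf7, -1.27 for Tnfrsf13c and -1.25 for the neuronal membrane gene Slitrk5. For Klf7 the arrays read 10.60, 10.75 and 10.69 with the +Dox label and 9.55, 9.49 and 9.60 with the -Dox label, and for Slitrk5 7.35, 7.37 and 7.49 against 6.47, 6.48 and 6.32.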

How the results depend on the processing

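The counts moved most with the offset and the fold limit. The 1404 probes changed in Chek1_R became 915 with an offset of 50, 342 with 200, 394 at a 2-fold limit and 4689 with no fold limit, and leaving out 1 array gave 1404 to 1466. Against Ctrl_R, 1362 became 860, 308, 341 and 2766 under the same settings, with 1268 to 1314 without 1 array. Against the other 3 clones, 579 became 315, 115, 139 and 1948, with 547 to 602. Median scaling gave 892 higher and 596 lower probes in place of 681 and 723, and 428 and 194 in place of 330 and 249 against the other 3 clones. It moved the median change of all probes by 0.07. It also turned the median change of the ATR-CHK1 list to 0.05 (0.0467), of the replication list to 0.0426, of the mitosis list to 0.0871 and of the Bcl2 list to 0.0539, all near 0. The causes were not tested.

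The rise of Chek1 was no longer called with an offset of 50 (0.426, adjusted p = 0.00565) or 200 (0.156, adjusted p = 0.0468), where the fold limit was missed, or with an unmoderated test per probe (0.707, adjusted p = 0.0568), and was 0.588 to 0.851 without 1 array. Of 139 changed named genes 84 were still called with an offset of 200, and 135 to 137 without 1 array. No named gene that was called in the main run or in an alternative changed sign between them. Signs of genes called in neither were not compared. Of the changed named genes 80 were counted as called under every alternative run for them. That count includes Chek1, whose call was lost as given above. Replicate numbers are shared between conditions but did not pair the arrays (r of same-numbered deviations 0.0487, -0.0678 and -0.0736). With a replicate block 1400, 1297 and 558 probes were called and all 139 named genes remained.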

Other observations

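Cholesterol synthesis genes, a group the comparison above leaves aside, rose in part, with 3 of 21 higher on the arrays labelled -Dox and 0 lower. Ebp, a sterol isomerase, rose by 0.97 and Hsd17b7, a sterol reductase, by 0.88, both also relative to Ctrl_R. Of the 15 largest falls not yet described, Dnaic1, a dynein chain of motile cilia, fell by 1.75, the growth factor gene Gdf15 by 1.44, Kndc1 by 1.4, Prkcb1 (Prkcb) by 1.4 and 1300013J15Rik (Slc47a1) by 1.39.

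Probes of 1 gene did not always move together. Of 359 genes with several tested probes and at least 1 changed, 229 had a probe that was not called, and 0 had probes called in opposite directions by limma. Actb, whose product is the cytoskeletal actin used as a reference gene, had 3 probes that fell (log2 changes of -2.09, -1.85 and -1.0) with SE of 0.480, 0.453 and 0.274, while its brightest probes differed by 0.17 and -0.03. None of these 5 probes differed in its change from Ctrl_R at the threshold.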
